A study of Mus musculus with 9 samples.

Results

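The baseline open chromatin of E14 cells titled wild type (WT) was described from their 3 ATAC-seq libraries in a series of 9. E14 is a widely used line of mouse embryonic stem cells. Peaks of the 3 WT lists that overlapped by at least 1 bp were merged, and regions with a peak in 3 of 3 libraries were kept. That gave 40692 regions of the 81948 with a peak in any WT library, and of the 116362 with a peak in any of the 9 libraries. All lines were of an E14 variant that the labels name TOT2N, which they do not explain. Whether the WT cells differ from parental E14 is therefore not known here. The other lines, used here only for comparison, carried a stably integrated TetR construct (TetR, 3 libraries) or a TetR-MYBTA construct (3 libraries). TetR is the tetracycline repressor, a bacterial DNA-binding protein; the series as a whole concerns MYB, enhancers and their promoters. The labels give no culture medium, promoter of the constructs or clone number, and leave unsaid whether libraries of a line are separate cultures. The p-values below therefore cover library-to-library spread alone, some or all of which can be technical.

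ATAC-seq marks accessible DNA by the insertion of adapters by the Tn5 transposase. Open sites are mostly gene starts, where nucleosomes are cleared for transcription, and distal sites bound by transcription factors, many of them enhancers. Mouse embryonic stem cells are kept undifferentiated by a network of DNA-binding proteins around Oct4 (gene Pou5f1), Sox2 and Nanog, while genes of later lineages are largely off. Accessibility is not RNA, and none was measured here, so a region at a gene says nothing of its transcription.

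The WT lists held 56612, 63098 and 59575 peaks from tags totalling 18.5, 23.0 and 22.1 M, of which 7.84, 8.09 and 7.79% fell in peaks. The other 6 lists held 45136 to 70230 peaks. Deposited positions on 2 chromosomes did not line up with the reference gene table. On chromosome 8, regions beyond a point between 13.7 and 13.9 Mb lay 181.7 kb too far along. On chromosome X, regions beyond a point between 10.7 and 12.6 Mb lay 626 bp too far along. In chromosome 8, 420 of 1912 such regions matched a gene start or end within 150 bp only after that shift was taken off, and 16 only without it; in X these were 267 and 24 of 1066. The same shifts appeared in all 9 lists, while the other autosomes, each read in 4 parts, had 0 as their commonest offset. No source used here gives a cause. All gene-based values below therefore leave out chromosomes 8 and X, which held 2076 and 1136 regions, and rest on the other 37480 regions and 19768 protein-coding genes.

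Because the libraries are bulk samples, a site open in more cells and a site opened further in each cell cannot be told apart. Regions shared by all WT libraries were richer in gene ends than regions of fewer libraries. Of the 37480 regions, 9664 (25.8%) lay within 1 kb of an end of a protein-coding gene, 12640 (33.7%) elsewhere inside such a gene and 15176 (40.5%) between such genes. A region called between genes can thus lie in a noncoding gene. Of regions seen in 2 of 3 libraries 15.6% lay at gene ends, and of those seen in 1 library 13.3%. Regions in 3 of 3 libraries had a median width of 238 bp and together covered 10.3 Mb. Of each list's peaks, 71.9% in WT replicate 1, 64.5% in replicate 2 and 68.3% in replicate 3 fell in such a region.

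The share at gene ends fell along each WT list. HOMER, the peak caller, usually lists peaks from the strongest down; this could not be checked here, since the deposited score is constant. Row order and HOMER's peak number had rank correlations whose lowest value over chromosomes was 0.994 in each WT list. Each list was cut by row into 5 equal bins, bin 1 being the top. In bin 1 49.5% of WT replicate 1 peaks lay at gene ends, 47.6% of replicate 2 and 49.9% of replicate 3. In bin 5 these shares were 7.53, 6.53 and 7.22%. Between genes lay 27.6, 28.4 and 27.6% of peaks in bin 1, and 50.3, 51.0 and 49.3% in bin 5. The 3 lists differed by less than 3 percentage points in every bin for gene ends. Peaks of bin 1 also recurred more, with 94.5, 94.4 and 94.2% in a 3 of 3 region, against 36.6, 21.2 and 28.4% of bin 5.

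**Figure D1:**
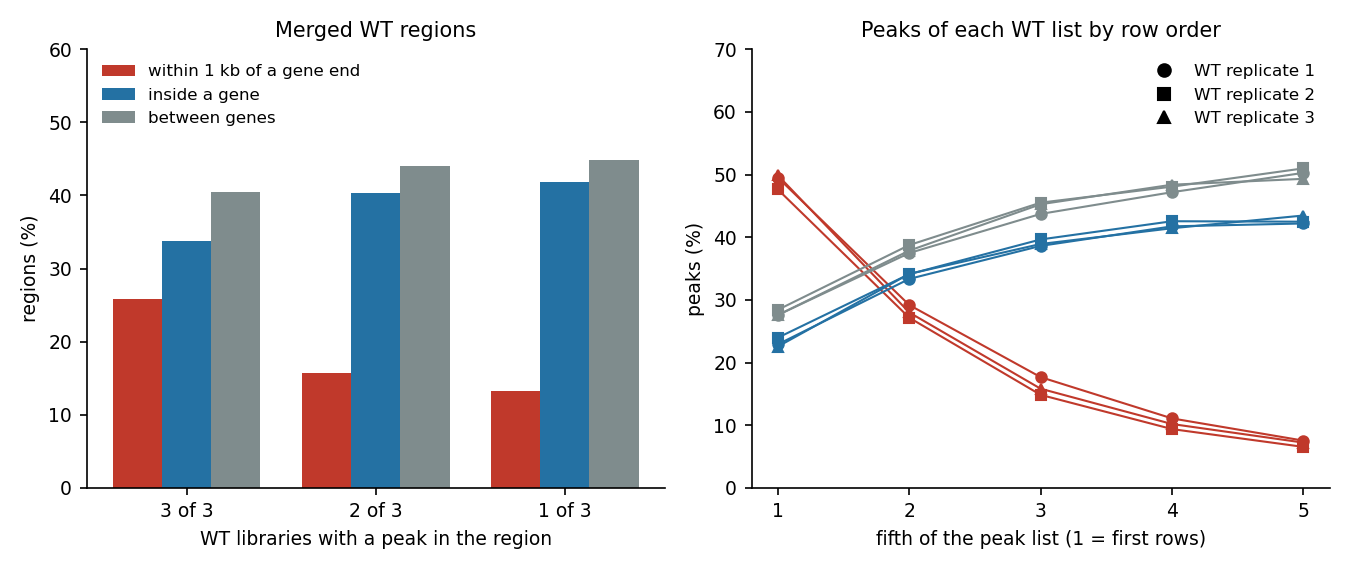
Left, percent of merged WT regions at gene ends, inside genes and between genes, by the number of WT libraries with a peak; right, the same shares of the peaks of each WT list in 5 equal bins of its rows. Gene ends made up 25.8% of regions in 3 of 3 libraries and 13.3% of those in 1, and the gene-end share of the 3 lists was 47.6 to 49.9% in bin 1 and 6.53 to 7.53% in bin 5.

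At gene ends the regions clustered tightly on starts. The strand was at hand for 15950 protein-coding genes outside 8 and X. For these shares the start is the outermost one, so a region at a start inside the gene does not count. Of these genes, 44.5% had a region within 1 kb of the start only, 2.31% at the far end only, 3.64% at both and 49.5% at neither. Among 10079 pairs of any RefSeq start and a region midpoint within 1 kb, 72.0% lay within 200 bp. From 100 bp before to the start itself lay 40.3%. The median offset was -48 bp, which is just upstream. Of regions between genes, the median distance to a protein-coding gene was 36.3 kb, and 4484 (29.5%) lay over 100 kb from any.

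Over all protein-coding genes, 9967 of 19768 (50.4%) had a region within 1 kb of an end, and 2371 (12.0%) had none within 50 kb. Chromosome Y contributed 247 of the 2371, out of its 253 protein-coding genes. The genes without a region were short, with a median length of 4.23 kb against 17.3 kb for all protein-coding genes. Counted anywhere from 1 kb before to 1 kb after a gene, a region was found for 63.5% of protein-coding genes (12544 of 19768). By that measure transfer RNA genes had one in 44.1% (167 of 379), long noncoding RNA genes in 34.1%, and pseudogenes in 5.04%. No source used here says whether reads with several placements were kept, and how far sequence copies account for genes without regions was not tested.

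Gene families differed widely. Over all protein-coding genes 50.4% had a region at an end and 12.0% had none within 50 kb. Ribosomal protein genes, which build the ribosome, had a region at an end in 67 of 74, and proteasome subunit genes, for protein breakdown, in 31 of 37; neither family had a member without a region within 50 kb. Zinc finger genes named Zfp had one at an end in 239 of 363 (65.8%). Olfactory receptor genes, which detect odours in the nose, had one in 11 of 1098 (1.00%), with none within 50 kb of 472 (43.0%). Vomeronasal receptor genes, for pheromones, had one in 2 of 349, with none within 50 kb of 197 (56.4%). The most empty families were the prolactin family of placental and pituitary hormones, with none within 50 kb of 22 of 25 genes, and the secretoglobins, small secreted proteins, with none at 32 of 40. The 39 Hox genes, which pattern the body axis, fell elsewhere: 6 (15.4%) had a region at an end, while 1 (2.56%) had none within 50 kb. Other families lay near the share of all genes at an end. These were core histone and H1 genes (49.3%), protocadherins (50.7%) and solute carriers (51.3%). These families were chosen after the values were seen, and their shares are a description.

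CpG content of the start separated starts with and without a region. Each of 19414 start windows ran from 250 bases before to 50 after a RefSeq start, and 8006 (41.2%) overlapped a 3 of 3 region. Windows with a region held a median of 22 CpG dinucleotides, and windows without one 5. With 0 to 2 CpG, 1.56% of 3535 windows had a region, with 6 to 10 26.2% of 2436, and with 21 to 30 71.7% of 3865. The share was lower again in the richest class: 53.5% of 894 windows with 41 to 67 CpG. In single libraries that class gave 64.1, 62.8 and 64.3% in WT replicates 1 to 3, and the class of 21 to 30 gave 77.4, 77.5 and 77.7%, so the richest class was lower in each. The cause of the lower share in the richest class was not tested.

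**Figure D2:**
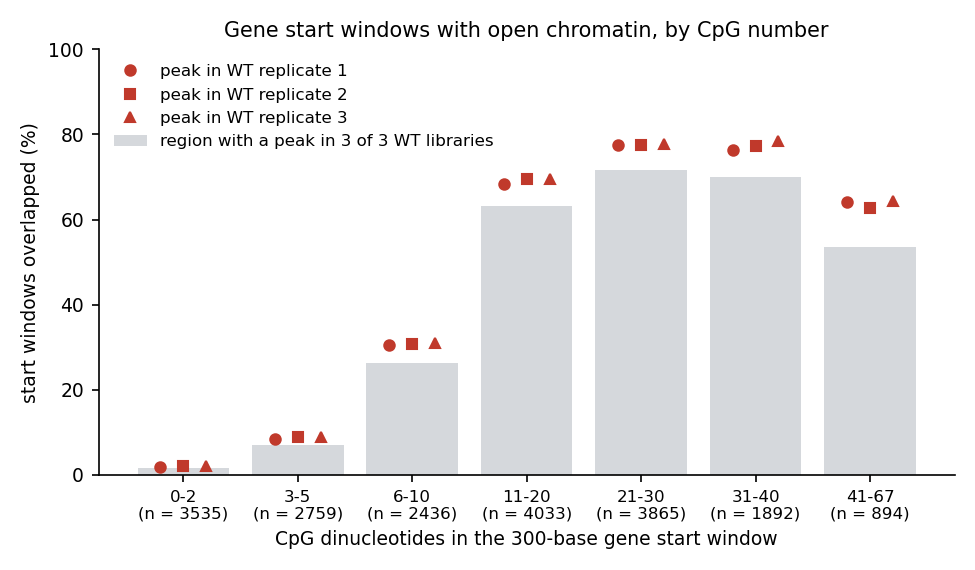
Percent of gene start windows, in classes of CpG number, that overlap a WT region with a peak in 3 of 3 libraries (bars) or a peak of each WT library (points); the number of windows stands under each class. The share was 1.56% at 0 to 2 CpG, 71.7% at 21 to 30 and 53.5% at 41 to 67, and the 3 libraries lie close together in every class.

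Short motifs were counted in the same windows on both strands, with overlap to other motifs allowed. The GC box GGGCGG, bound by Sp1-type factors, stood in 70.7% of windows with a region and 29.2% of those without (46.3% of all windows). The ETS motif CCGGAAG stood in 20.6 and 5.33% (11.6% of all), and the TATA box TATAAA in 5.32 and 17.8% (12.7% of all). The octamer ATTTGCAT, the motif of Oct-type factors, stood in 1.54 and 1.67% (1.62% of all). GGGCGG and CCGGAAG contain CpG, so they were also read at similar CpG number. Among windows with 11 to 30 CpG, 76.9% of 1544 with CCGGAAG had a region, against 65.0% without it, and 69.7% of 5405 with GGGCGG, against 62.3% without. CCAAT, which holds no CpG, gave 76.6% of 3139 windows with it and 61.3% without. TATAAA gave 60.5% of 481 windows with it and 67.8% without, so its contrast was smaller there. ATTTGCAT gave 74.7% of only 99 windows with it and 67.3% without. Of the other motifs counted, GCATGCGC gave 76.6% with it and 66.8% without, and TGACGTCA 76.5 and 67.0%. CACGTG differed little, at 68.3 and 67.2%. A match is a stretch of letters and not a bound site.

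Start sequences show how the best-known genes fall along this range. They are the 250 bases before a start from RefSeq (GRCm38.p6), with CpG in capitals; the first 5 belong to pluripotency genes and the last 4 to genes of other lineages with no region within 50 kb.
Pou5f1: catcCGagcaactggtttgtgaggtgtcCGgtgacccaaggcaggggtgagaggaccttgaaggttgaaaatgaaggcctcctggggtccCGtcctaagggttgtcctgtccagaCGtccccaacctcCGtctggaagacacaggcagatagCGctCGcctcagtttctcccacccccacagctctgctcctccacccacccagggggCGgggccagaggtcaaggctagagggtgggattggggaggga
Nanog: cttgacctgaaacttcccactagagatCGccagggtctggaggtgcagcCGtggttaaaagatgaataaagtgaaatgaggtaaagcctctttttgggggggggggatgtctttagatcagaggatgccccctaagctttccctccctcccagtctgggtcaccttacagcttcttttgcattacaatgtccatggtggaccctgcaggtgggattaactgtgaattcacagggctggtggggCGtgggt
Esrrb: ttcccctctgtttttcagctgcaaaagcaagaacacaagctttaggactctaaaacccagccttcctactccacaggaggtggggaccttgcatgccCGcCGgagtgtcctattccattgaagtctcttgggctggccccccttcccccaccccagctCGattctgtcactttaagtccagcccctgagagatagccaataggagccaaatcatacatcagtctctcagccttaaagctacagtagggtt
Sox2: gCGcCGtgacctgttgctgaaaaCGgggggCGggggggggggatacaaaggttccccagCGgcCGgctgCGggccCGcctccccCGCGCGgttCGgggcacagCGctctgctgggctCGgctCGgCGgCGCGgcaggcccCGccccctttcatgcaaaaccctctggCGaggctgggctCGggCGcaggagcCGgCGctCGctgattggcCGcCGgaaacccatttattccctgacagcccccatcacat
Klf4: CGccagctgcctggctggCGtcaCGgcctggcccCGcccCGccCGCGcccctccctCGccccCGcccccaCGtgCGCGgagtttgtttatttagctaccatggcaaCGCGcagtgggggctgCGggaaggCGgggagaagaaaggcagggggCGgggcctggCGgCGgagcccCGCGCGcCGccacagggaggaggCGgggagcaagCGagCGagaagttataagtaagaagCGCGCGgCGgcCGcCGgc
Foxc1: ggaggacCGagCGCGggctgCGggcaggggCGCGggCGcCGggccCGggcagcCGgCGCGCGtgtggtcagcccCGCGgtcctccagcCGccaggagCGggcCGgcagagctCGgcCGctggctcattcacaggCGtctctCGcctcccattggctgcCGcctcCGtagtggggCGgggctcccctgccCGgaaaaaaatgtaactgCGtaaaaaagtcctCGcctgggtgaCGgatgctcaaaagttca
Twist2: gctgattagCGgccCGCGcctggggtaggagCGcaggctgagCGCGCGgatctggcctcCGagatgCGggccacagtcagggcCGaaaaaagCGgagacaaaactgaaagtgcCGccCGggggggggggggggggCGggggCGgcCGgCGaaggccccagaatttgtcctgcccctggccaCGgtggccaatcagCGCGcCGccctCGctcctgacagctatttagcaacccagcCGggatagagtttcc
Gfi1: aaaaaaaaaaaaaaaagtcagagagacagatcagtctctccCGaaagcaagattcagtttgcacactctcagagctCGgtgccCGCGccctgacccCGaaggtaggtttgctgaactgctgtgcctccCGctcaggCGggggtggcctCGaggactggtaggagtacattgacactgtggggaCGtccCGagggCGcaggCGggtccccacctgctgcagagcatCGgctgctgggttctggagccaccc
Cd8a: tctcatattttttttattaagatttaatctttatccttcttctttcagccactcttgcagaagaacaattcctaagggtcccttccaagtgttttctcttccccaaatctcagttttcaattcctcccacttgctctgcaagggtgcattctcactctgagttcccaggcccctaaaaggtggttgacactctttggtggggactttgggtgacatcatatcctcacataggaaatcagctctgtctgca
The windows lie at chr17:35505782-35506031 (Pou5f1, plus strand), chr6:122707239-122707488 (Nanog, plus), chr12:86421394-86421643 (Esrrb, plus), chr3:34649745-34649994 (Sox2, plus) and chr4:55532476-55532725 (Klf4, minus). The lineage windows lie at chr13:31806396-31806645 (Foxc1, plus), chr1:91801211-91801460 (Twist2, plus), chr5:107725806-107726055 (Gfi1, minus) and chr6:71373177-71373426 (Cd8a, plus). Sox2, with 27 CpG in these bases, and Klf4, with 32, had a peak at the start in 3 of 3 WT libraries. Esrrb had only 3 CpG and also had one in 3 of 3. Pou5f1 (8 CpG) had a peak there in 0 WT libraries and Nanog (3 CpG) in 1. Foxc1 had 29 CpG and a peak in 0 WT libraries, and Twist2 had 23 and a peak in 1, so CpG-rich starts were not all open. Gfi1, a repressor gene of blood cells, had 13 CpG and Cd8a, a T cell surface protein gene, 0, and neither had a peak there in any WT library.

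The core and naive pluripotency list had 31 genes outside 8 and X, and all of them had a region within 50 kb. In this and the other lists, genes that lie close together, such as Dppa2 and Dppa4, share regions, which were counted for each. A region lay at an end of 21 of the 31 (67.7%), against 50.4% of all protein-coding genes, and the median number within 50 kb was 6, against 3. In the single libraries 22, 22 and 24 of the 31 had a peak at an end. The housekeeping list was likewise high, with 22 of 28 genes having a region at an end and a median of 5 within 50 kb.

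Pou5f1, which encodes the central pluripotency factor Oct4, had no region at its start in 3 of 3 libraries. Its 4 regions lay at -15.5, -2.01, 3.51 and 10.9 kb from the start, and WT replicates 1 to 3 had 9, 8 and 5 peaks within 50 kb. The region at -2.01 kb stood high in the lists, at a mean place of 91.3 where 100 is the first row, and recurred in 6 of the other 6 libraries. Nanog, a homeodomain factor of the same network, had 8 regions, none inside the gene. The one at -4.82 kb had a mean place of 99.2 and recurred in all 6. WT replicates 1 to 3 had 9, 8 and 10 peaks within 50 kb of Nanog. Sox2, partner of Oct4, had 2 regions, one at the start and one 18.6 kb beyond it, and 3, 6 and 5 peaks.

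Esrrb, an orphan nuclear receptor of the naive state, had 12 regions, 11 of them inside the 161-kb gene. The highest in the lists lay 140.7 kb from its outermost start, at a mean place of 98.6. One of the 12, at 25.0 kb, had a peak in 0 of the other 6 libraries. Tet2, which encodes an enzyme that oxidises methylated cytosine, had the most of the list, 16, with 20, 19 and 19 peaks in WT replicates 1 to 3. Klf4, a Krüppel-like factor, had 4 regions, of which 2 lay within 1 kb of its start. Trim28, a co-repressor of repeats, had 10 regions, Utf1, a chromatin protein gene of undifferentiated cells, 9, and Fgf4, a growth factor gene, 8.

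**Figure D3:**
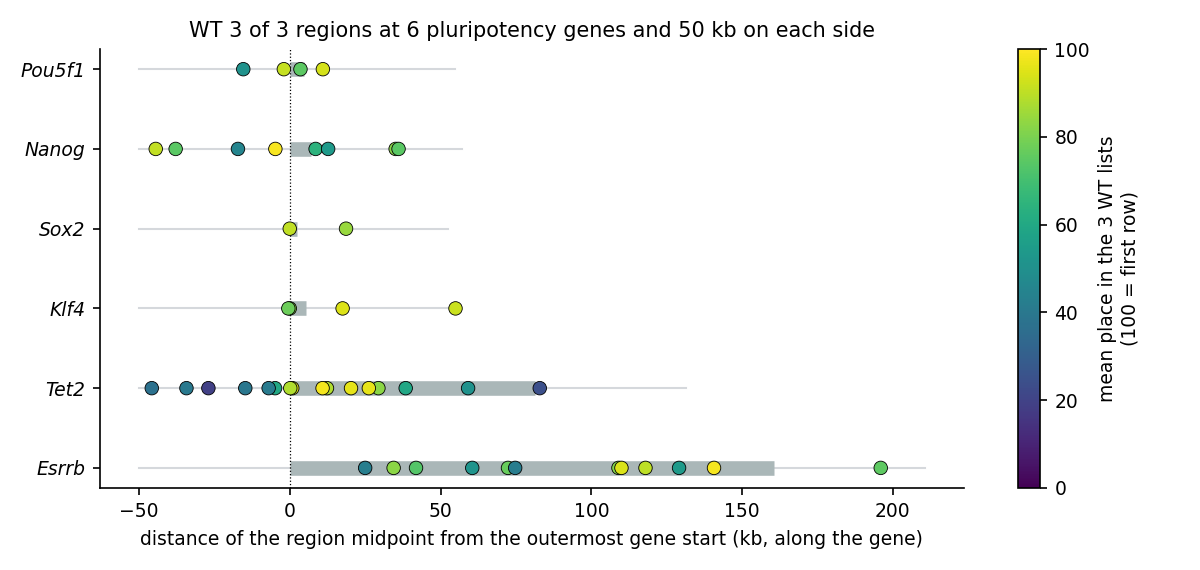
WT regions with a peak in 3 of 3 libraries at 6 pluripotency genes and 50 kb on each side, by distance of the midpoint from the outermost start of the gene (kb); grey bars are the genes, and colour is the mean place in the 3 WT lists, 100 being the first row. Pou5f1 and Nanog have no point at the start, Sox2 and Klf4 do, and Esrrb holds 11 of its 12 regions inside the gene.

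The other genes of that list had 2 to 8 regions. Jarid2, a partner of Polycomb complex 2, had 8, and Tfcp2l1, Prdm14, Dppa3, Lin28a and Il6st had 7 each. Dppa2, Dppa4, Dppa5a, Lifr and Mycn had 6 each, and Tbx3, Tet1, Stat3 and Gdf3 had 5. Lifr encodes the receptor of the cytokine LIF and Stat3 its signal transducer. Nr5a2, Tdgf1, Sall4 and Fbxo15 had 4, Klf5 and Rif1 had 3, and Tcl1 had 2. The 10 genes with no region at an end were Pou5f1, Nanog, Esrrb, Nr5a2, Dppa3, Tdgf1, Tet1, Lifr, Mycn and Gdf3. An end here is the outermost start or stop of the gene, so the Esrrb start region above, 60.5 kb inside the gene, does not count as one.

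Formative and primed pluripotency genes, which mark steps after the naive state, had a region at an end in 7 of 18 (38.9%), against 50.4% of all protein-coding genes. Their median number within 50 kb was 5, against 3. Fgf15, Lefty1 and Lefty2 had 8 each, and Dnmt3a, a DNA methyltransferase gene, and Grhl2 had 7 each. Lefty1 and Lefty2 are neighbours, as are Fgf15 and Fgf4 of the core list, so regions within 50 kb of both were counted for both. Cer1, which encodes a secreted inhibitor of Nodal, had no 3 of 3 region within 50 kb, but 2, 2 and 1 peaks in WT replicates 1 to 3. Markers of other cells that a culture could hold gave these counts. Of the primitive endoderm list 3 of 14 genes (21.4%) had a region at an end, against 50.4% of all protein-coding genes. In WT replicates 1 to 3, 3, 5 and 5 of them had a peak there, against 11467, 11641 and 11523 of all 19768. Without WT replicate 1 the count of 3 became 5. Sparc, a matrix protein gene, had the most in that list, with 7 regions, then Hnf4a and Cubn with 6 each and Lama1 with 5, tied with Gata4. Of the fibroblast feeder list 6 of 18 (33.3%) had a region at an end, and 8, 10 and 10 had a peak there in WT replicates 1 to 3. None within 50 kb was found for 5 of the 18 (27.8%), against 12.0% of all protein-coding genes. The 5 became 2 without WT replicate 1 and 1 with at least 2 of 3 libraries. In the single libraries 4, 1 and 0 had no peak within 50 kb. Those without one were Col6a1, Postn, Dcn, Lum and Twist2, most of them matrix genes; Fn1 had 7 and S100a4 5. Acta2, Fbn1, Col1a1, Thy1, Pdgfrb and Tagln tied at 4. How far other cells contributed to these libraries was not tested.

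Lineage genes that encode regulators and those that encode products differed in some measures and not in others. Of 192 lineage genes outside 8 and X, 63 (32.8%) had a region at an end, against 50.4% of all protein-coding genes, and 17 (8.85%) had none within 50 kb, against 12.0% of all. Genes with none were thus no more frequent in these lists than among all genes. Of 94 that encode DNA-binding regulators 39 (41.5%) had a region at an end and 3 had none nearby. Of the other 98, mostly enzymes, hormones and structural proteins, 24 (24.5%) had one at an end and 14 had none nearby. The median number of regions within 50 kb was 3 in both groups, the same as over all protein-coding genes. The split into regulators and other genes was made after the values were seen.

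The neural list had a region within 50 kb of all 39 genes, and at an end of 18, a share of 46.2% against 50.4% of all protein-coding genes. Without WT replicate 2 that count was 22, above the share of all genes (10354 of 19768), and with at least 2 of 3 libraries 25 (all genes 11474). In WT replicate 1 the number with a peak at an end was 31, against 24 and 23 in replicates 2 and 3, while over all protein-coding genes replicate 1 had 11467, against 11641 and 11523. Most regions lay near Syt1 (10), a gene of 513 kb for a synaptic vesicle calcium sensor, then near Snap25, Neurod1 and Slc17a7 (7 each). Mesoderm genes had a region at an end in 9 of 19, led by Tcf15 and Wt1 (8 each), Pax8 (7), and Tbx6 and Pax2 (6 each). Endoderm genes had one in 5 of 16, led by Hnf4a (6), and Foxa3, Pdx1 and Gata4 (5 each). Trophoblast genes had one in 8 of 18, but in 11 without WT replicate 1 and in 12 with at least 2 of 3 libraries, both above the share of all genes (10502 and 11474 of 19768). They were led by Tead4 (10), Tfap2c (9), and Tfap2a and Elf5 (7 each), all genes of DNA-binding factors.

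Set against the 50.4% of all protein-coding genes, germ line genes (47.4%) were close to that share, and blood (27.6%), muscle and heart (20.8%), liver and pancreas (20.8%) and skin (0%) were below it. Blood genes had a region at an end in 8 of 29, led by Ebf1 and Cd4 (10 each), Spi1 (8) and Cd79a (7). Muscle and heart genes had one in 5 of 24, led by Ryr1 (15), Tnni3 (10), Mef2c (9) and Tbx20 (5). Liver and pancreas genes had one in 5 of 24, led by Fgb (5), and Fga, Nkx6-1 and Mafa (4 each). Germ line genes had one in 9 of 19, led by Prdm1 (11), Zp3 (8), and Stra8 and Sycp3 (7 each). Skin genes had one in 0 of 12, led by Lor (6), Trp63 and Krt14 (4 each) and Dsg3 (3). Of the leading genes named for these lists, Tnni3, Cd4, Cd79a, Fgb, Slc17a7, Tbx6, Fgf15, Lefty1, Lefty2, Krt14, Dsg3, S100a4, Acta2 and Tagln had no region at their own ends or inside them, so the regions counted lie around them.

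Of the 17 lineage genes with none within 50 kb, 10 also had no peak there in any single WT library. Those 10 were Prl2c2, Cd8a, the myosin heavy chain genes Myh1, Myh2 and Myh4 of adult muscle, Serpina1a, Ins1, Prss1, Ivl and Flg. Serpina1a encodes a liver protease inhibitor, Ins1 insulin and Prss1 trypsin, and Ivl and Flg encode proteins of the outer skin. The distance from the gene to the nearest region was 134 kb for Ins1, 166 kb for Serpina1a and 215 kb for Prl2c2. It was 70.6 kb for Myh2 and 59.8 kb for Ivl. The other 7 had peaks in 1 or 2 libraries or at places that differed between them: Foxc1 had 2, 3 and 4 peaks in WT replicates 1 to 3, and Krt1 had 2, 1 and 0. Gfi1 and Amy2a5 had 1 peak in each of 2 libraries. Twist2 (2 peaks), Tnp1 (1) and Krt5 (1) had peaks in a single library. Foxc1, Twist2 and Gfi1 were the only DNA-binding regulators of the 17 in these lists.

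**Figure D4:**
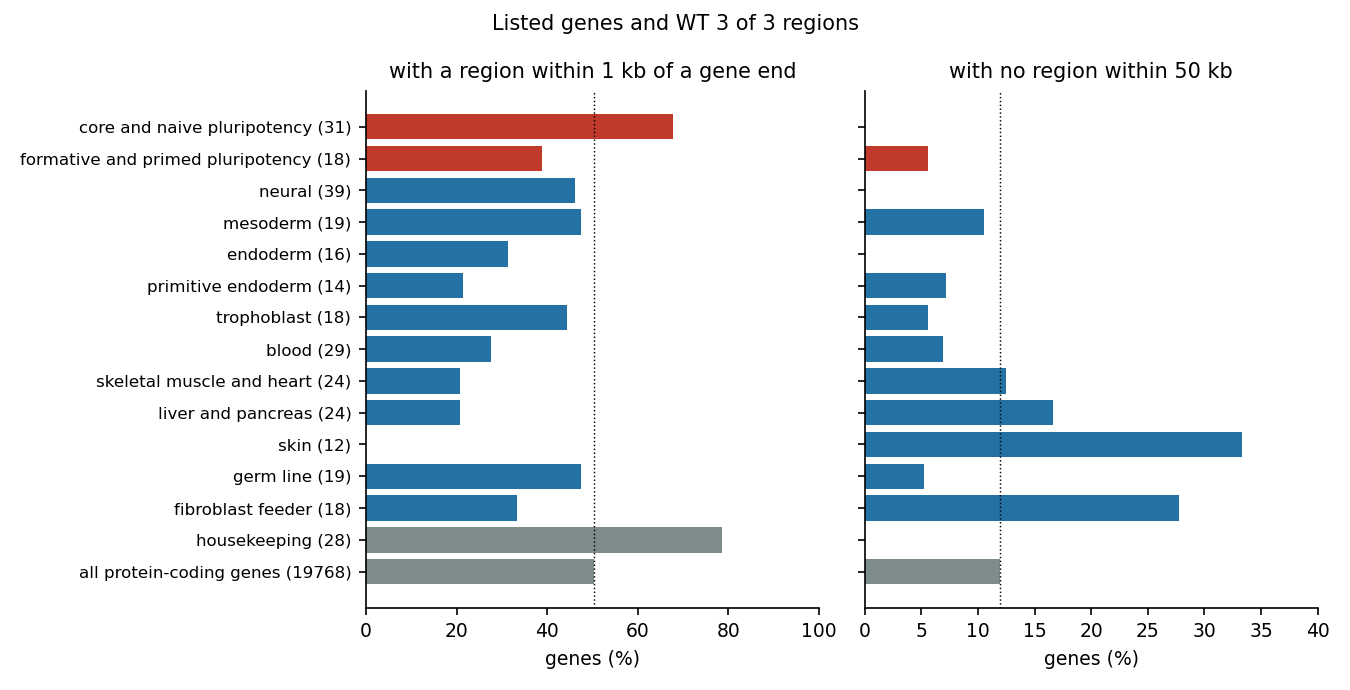
Percent of the genes of each list, with the number of genes in parentheses, that have a WT 3 of 3 region within 1 kb of a gene end (left) or none within 50 kb (right); the dotted line is the value over all protein-coding genes. Core pluripotency (67.7%) and housekeeping (78.6%) lie above the line of 50.4% on the left, and the others lie under it, although neural and trophoblast cross it when a library is left out. On the right skin stands at 33.3% and fibroblast feeder at 27.8%, which rests on WT replicate 1.

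Of 879 microRNA hairpins outside 8 and X, 89 (10.1%) had no region within 50 kb, and the median was 3. The miR-290 cluster, a cluster highly expressed in mouse embryonic stem cells, had 9 or 10 regions within 50 kb of each hairpin. Its hairpins lie close together, so mostly the same regions were counted for each. In all, 25 of the 879 hairpins had at least 9, those of this cluster among them. The mature forms shown have a seed, bases 2 to 8 in capitals, that begins with AAGUGC, except miR-206 at the end, a muscle microRNA whose hairpin had no region within 50 kb.
miR-290a-3p: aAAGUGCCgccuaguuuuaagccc
miR-291b-3p: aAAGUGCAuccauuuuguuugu
miR-294-3p: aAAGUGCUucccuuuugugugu
miR-295-3p: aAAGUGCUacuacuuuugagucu
miR-302b-3p: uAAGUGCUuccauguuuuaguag
miR-302d-3p: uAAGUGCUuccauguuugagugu
miR-206-3p: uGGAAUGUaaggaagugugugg
miR-294, miR-295, miR-302b and miR-302d share the whole seed AAGUGCU, while miR-290a has AAGUGCC and miR-291b AAGUGCA. Of the 10 regions at Mir290a (chromosome 7, 3218626 to 3218708, plus strand), 8 lay upstream, and the one at -17.2 kb had a mean place of 98.0. The one at -0.876 kb, at a mean place of 91.1, recurred in 1 of the other 6 libraries. The miR-302 cluster had 6 regions, with 6 peaks in each WT library. Mir205, a microRNA of epithelia, had 11 regions. Mir9-1, Mir9-2 and Mir9-3 had 5, 9 and 6 regions. Mir206 and Mir133b had 0 regions and 0, 1 and 1 peaks in WT replicates 1 to 3. These microRNAs were chosen after the values were seen.

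The densest 100-kb windows included gene clusters, single genes and stretches without protein-coding genes. Over all chromosomes 16749 windows held a region, with a median of 2, and 49 held at least 10. A list cannot hold peaks closer than 2 peak widths, per the file headers, which caps these counts. The densest window, chr13:23500001-23600000, held 15 regions and 20, 18 and 19 peaks in WT replicates 1 to 3. It lies in a histone gene cluster with 15 protein-coding genes, among them H4c8, H3c8, H2bc9 and H1f3, and 13 transfer RNA genes, and 10 of its regions lay at gene ends. The neighbouring window, chr13:23400001-23500000, held 12 regions, of which 11 lay between protein-coding genes, with 22 transfer RNA genes and the genes Abt1, Btn1a1 and Btn2a2. A further window, chr13:21200001-21300000, had 12, with 13 transfer RNA genes and Gpx5 and Gpx6.

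The window chr3:133500001-133600000 held 14 regions with Tet2 as its only protein-coding gene, and 17, 16 and 16 peaks in WT replicates 1 to 3. The window chr16:55800001-55900000 also held 14, of which 12 lay inside Nfkbiz, Nxpe3 or Cep97, and 16, 16 and 14 peaks. Nfkbiz encodes a nuclear regulator of NF-kappaB. On chromosome 17, chr17:56200001-56300000 with Dpp9, Fem1a, Ticam1, Plin3 and Arrdc5 held 13, of which 9 lay at gene ends. Another, chr17:36900001-37000000, in the major histocompatibility region, held 13, with Trim31, Rnf39, Ppp1r11, Znrd1, Znrd1as, 2410137M14Rik and H2-M5.

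Place 10 was shared by 8 windows of 12 regions, all given here. The window chr1:135700001-135800000 held Csrp1, Phlda3 and Tnni1. The window chr1:193500001-193600000 held Mir205, the long noncoding RNA gene Mir205hg and no protein-coding gene, with 12 of 12 regions between protein-coding genes. The window chr6:67100001-67200000 held only long noncoding RNA genes. At chr3:87900001-88000000 lay Hdgf, Mrpl24, Rrnad1, Isg20l2, Crabp2, Nes and Bcan, Nes being the neural progenitor gene nestin. At chr7:12900001-13000000 lay genes that include Zscan22, Rnf225, Zfp324, Zfp446 and Slc27a5. At chr17:56800001-56900000 lay Rfx2, Acsbg2, Acsbg3 and Mllt1, and the 2 transfer RNA windows of chromosome 13 make up the rest. Places in this order depended on where windows begin: with windows moved by 50 kb, 7 of these 13 were still met by one of the 22 then at or above place 10.

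The protein-coding genes with most regions within 50 kb were long genes. Pde4d, a cyclic AMP phosphodiesterase gene of 1302 kb, had 39 regions, all inside it, and 56, 62 and 55 peaks in WT replicates 1 to 3. Dlg2, a synaptic scaffold gene of 1973 kb, had 33 and 37, 49 and 44 peaks. Macrod2 had 30, and Arhgap26 and Dlgap1 had 28 each. Gm38667, a gene model that spans 57 protocadherin genes of neural cell adhesion, also had 28. Robo1, an axon guidance receptor gene, had 26, Cntn5 and Nrxn3 25 each, Etl4 24, Magi2 23, Plcb4 22, Agbl4 21 and Adgrv1 20.

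Their median length was 1060 kb, so the order reflects length as well as density. Macrod2 had 1.43 regions per 100 kb of its window and Dlg2 1.59, both below the 2.53 that was the median over all protein-coding genes. Pde4d had 2.78, Arhgap26 3.20 and Plcb4 4.82. Ranked per 100 kb, 0 of the 15 genes remained. The leading ones were H3c8 at 15.9, Fem1a at 14.04, Znrd1as at 13.98, Zfp324 at 12.9, Ppm1n at 12.6, Hyal1 at 12.4 and Hsp90ab1 at 12.3. None of those named here was longer than 8.41 kb, while Ltbp4, at place 15 of that ranking, was 34.6 kb. In that ranking 37 genes were passed over because their 50-kb windows overlapped that of a gene ranked higher. Each leading gene thus stands for its neighbourhood.

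Regions were spread over every chromosome. Autosomes held 13.4 to 20.2 regions per Mb, chromosome 14 the fewest and chromosome 11 the most. X held 6.93 per Mb and Y 4 regions in all. Neighbouring regions lay a median of 28.1 kb apart, and 44 stretches of over 1 Mb had none. The longest stretch without a region was chrX:23955114-35564479 (11.6 Mb), with 50 protein-coding genes of families such as Btbd35f, Spin2 and Slx, many named only as gene models. It held 4, 3 and 4 peaks in WT replicates 1 to 3. The next, chr7:20071407-23359837 (3.29 Mb), held 86 genes, of which 70 were vomeronasal Vmn1r genes, and had 0 peaks in all 3 WT lists. On X also lay chrX:123104201-126270222 with 7 genes (Cldn34c1, Srsx, Gm2411, Cldn34c2, Cldn34c3, Gm5945 and Vmn2r121) and chrX:44810326-47912936 with Prr32, Actrt1, Smarca1 and Ocrl. The former held 0 peaks in each WT list, and the latter 3, 6 and 6 in WT replicates 1 to 3. The last of the 5 longest, chr12:21543572-24498304, held 14 genes, of which 12 are Gm gene models, and 1, 0 and 0 WT peaks. The shift of 626 bp on X does not matter at this scale.

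The share of WT peaks inside genes lay below every TetR library and above every TetR-MYBTA library, so a comparison with the other 6 together averages over opposite differences. Gene ends took 23.0, 21.1 and 22.2% of peaks in WT replicates 1 to 3, against 20.3, 21.3 and 22.9% in TetR and 21.1, 20.95 and 24.7% in TetR-MYBTA. The means were 22.1 ± 0.960% in WT (SD, n = 3) and 21.9 ± 1.65% in the other 6 libraries (SD, n = 6), and the ranges overlapped (two-sided exact permutation p = 0.833, adjusted over 3 classes p = 0.833). Inside genes lay 36.1 ± 0.401% of WT peaks (SD, n = 3) and 35.2 ± 2.86% of the others (SD, n = 6; exact p = 0.560, adjusted p = 0.833). Between genes lay 41.7 ± 0.559 and 42.9 ± 2.56% (exact p = 0.464, adjusted p = 0.833). Within single lines the inside-gene spread was smaller, with an SD of 0.521 in TetR and 0.865 in TetR-MYBTA (n = 3 each). The spread over the 6 thus holds a difference between lines. A comparison of 3 with 6 libraries cannot give a p below 0.0119.

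Against each line alone, a comparison added after seeing the data, the inside-gene share was 35.7 to 36.5% in WT, against 37.1 to 38.1% in TetR and 31.6 to 33.2% in TetR-MYBTA. WT was lower than TetR by a mean of 1.61 points (-1.61) and higher than TetR-MYBTA by 3.48 points, with no overlap in either case. Between genes lay 41.2 to 42.3% of WT peaks, wholly below the 43.6 to 45.9% of TetR-MYBTA (difference -3.36 points), while WT and TetR (39.98 to 41.6%) overlapped. These 3 differences without overlap each had a two-sided exact permutation p = 0.1, the smallest that 3 against 3 libraries allow, and an adjusted p of 0.2 over the 6 comparisons. At gene ends WT overlapped both lines. The lists of the lines differed in length, and how far that accounts for these differences was not tested.

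Most WT regions were open in the other lines too. Of the 37480, 23204 (61.9%) had a peak in all 6 other libraries and 628 (1.68%) in none. At gene ends 91.1 ± 3.70% of regions had a peak in another library, inside genes 81.8 ± 7.99% and between genes 83.8 ± 5.12% (SD, n = 6 libraries). Gene ends exceeded regions between genes in 6 of 6 libraries, by 5.40 to 10.7 percentage points and 7.30 ± 2.12 on average (SD, n = 6). The two-sided exact sign-flip p was 0.03125, the smallest that 6 libraries allow, but it did not pass after adjustment over the 2 comparisons (adjusted p = 0.0625). Regions inside genes differed from those between genes by -1.94 ± 3.38 points (SD, n = 6; exact p = 0.25, adjusted p = 0.25), with 3 of 6 libraries above 0. Those 3 were the TetR libraries, where 90.1, 88.8 and 85.1% of regions inside genes recurred, against 80.0, 78.5 and 68.6% in TetR-MYBTA. The TetR lists held 70230, 65957 and 58762 peaks, and the TetR-MYBTA lists 59675, 56917 and 45136. How far list length accounts for this contrast was not tested.

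The advantage of gene ends went together with their place in the WT lists. Regions at gene ends had a median mean place of 80.8, regions inside genes 54.6 and regions between genes 54.3. Regions found in all 6 other libraries had a median place of 74.6, and those found in none 25.9. In 5 bins of regions by place, gene ends had the lower mean in every bin: a peak in the other libraries was found, on average, for 98.0% of gene-end regions and 99.0% of regions between genes in bin 1, and for 57.9 and 62.9% in bin 5. Averaged over bins the difference was -2.90 points, with 3 of 6 libraries above 0 (two-sided exact sign-flip p = 0.25), a comparison added after seeing the data.

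**Figure D5:**
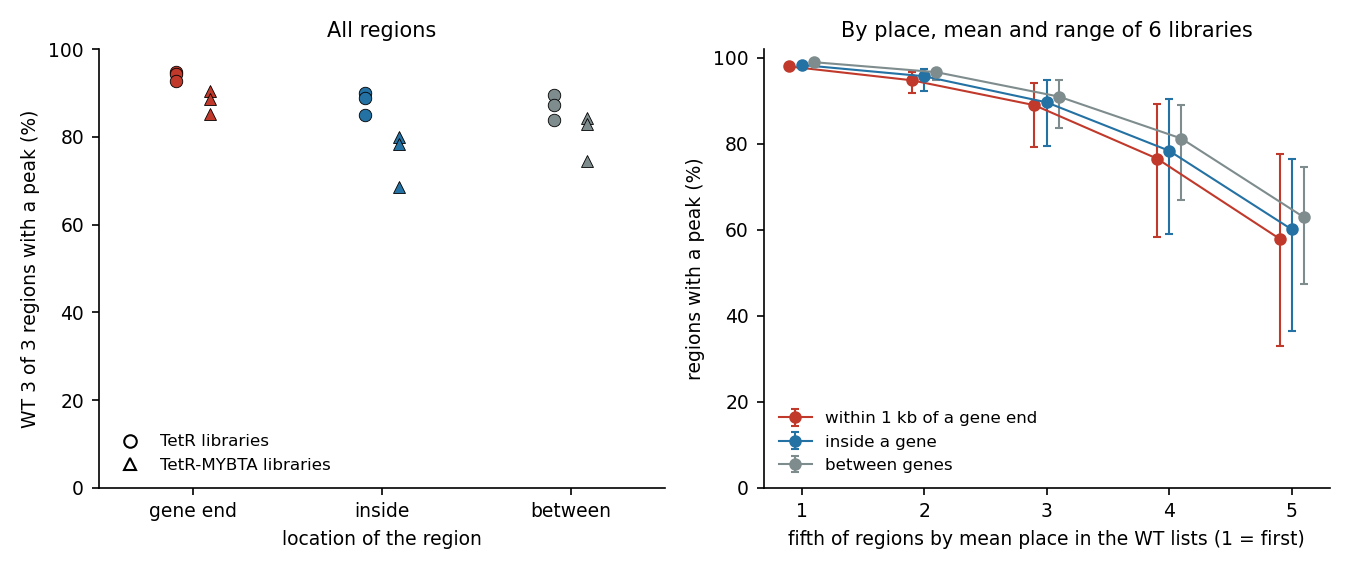
Percent of WT 3 of 3 regions with a peak in each TetR and TetR-MYBTA library by location (left, 1 point per library), and the mean over those 6 libraries with its range in 5 bins of regions by mean place in the WT lists (right). On the left gene ends lie highest in each library (91.1% on average); on the right the 3 locations lie close together, at 98.0 to 99.0% in bin 1 and 57.9 to 62.9% in bin 5.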

How the data were processed

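The 9 ATAC-seq libraries were grouped by title. Per the submitters' processing notes, the authors worked on mm10 with HOMER 4.11, deepTools 3.5.5, Trim Galore 0.6.10, Picard, Bowtie2 and FastQC. Per the file headers, peaks were called for each library alone, with 1 tag per position, a false discovery rate of 0.001, 4-fold over the surrounding 10 kb and a local p-value of 0.0001. No source used here says if read ends were moved for the Tn5 cut. The local rule dropped 13.5, 15.5 and 14.3% of putative peaks in WT replicates 1 to 3, which can thin dense clusters. In the deposited lists the score column is 1 in every row, and all but 1 peak of a list have 1 width, so peaks were used as present or absent. The counts behind single peaks were not used here, and no interval is given.

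Peaks of the 3 WT lists were merged at an overlap of at least 1 bp. Genes came from the RefSeq table of GRCm38.p6, the coordinates of mm10; 348 genes it gives with positions on other scaffolds were left out, among them the listed Hbb-b1. Of 316 listed symbols 23 lie on 8 or X and were also left out of gene-based values. Leaving out these 2 chromosomes was decided after seeing the data. A gene end is within 1 kb of either end of a protein-coding gene. Windows were 100 kb, counted by region midpoint. The 10 densest windows (with ties), the 15 genes with most regions (2 others passed over because they overlapped one named), all core pluripotency genes, the 4 leading genes of the other lists, the lineage genes with none and the 5 longest stretches are named, except a few items that are not reported here. Of the start sequences, those of Pou5f1, Nanog and Esrrb, 2 further pluripotency genes with a region and 4 lineage genes with none, in list order, are shown. Members, lists and rules were chosen with earlier results of these data known.

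Shares were compared by exact permutation over libraries and by exact sign-flips over the 6 other libraries, with Benjamini-Hochberg adjustment. Merging, placing and tests were tested on simulated lists. Alternatives were other merging rules, list lengths, distances and gene sets, leaving out each library, each other line alone and the replicate number as a block. Tables were handled with pandas 2.3.3 and numpy 2.4.6 in Python 3.11.15, tests run with scipy 1.17.1, and figures drawn with matplotlib 3.10.9.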

Additional observations from a re-analysis of the deposited data

How the results depend on the processing

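The number of regions fell to 21945 with the upper 50% of each list and was 44409 to 47358 with a WT library left out. The shares at gene ends, inside genes and between genes were 22.9, 35.6 and 41.5% with at least 2 of 3 libraries, 38.3, 28.3 and 33.4% with the upper 50% of each list, 30.9, 30.5 and 38.6% with 2.5 kb from an end, and 31.7, 37.2 and 31.1% with all genes of the table. They ranged from 23.9 to 25.0%, from 34.2 to 34.9% and from 40.7 to 41.2% with a WT library left out. The share between genes was 39.9% with peaks merged up to 200 bp apart, and that inside genes 34.1% with all chromosomes as deposited. With the shift on 8 and X taken off, the 3 shares moved by less than the SD between the WT lists. Genes with none within 50 kb were 4237 with the upper 50%, 1472 with no peak in any WT library and 2118 to 2223 with a WT library left out; within 10 kb they were 5246 and within 100 kb 1336. The lineage genes with none were 52, 10, 15 to 16, 58 and 6 in the same settings.

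Without a WT library, 10 to 13 of the 13 windows and 10 to 12 of the 15 genes named stayed in place. Of those windows 7 were met with windows moved by 50 kb, and of those genes 0 remained when ranked per 100 kb. The WT difference at gene ends was -0.186 points without WT replicate 1 and -0.0576 without TetR replicate 1, and 0.836 at most with a library left out; over 48 alternatives of the 3 location comparisons adjusted p ran from 0.2 to 1. Against TetR alone the differences inside and between genes were -1.61 and 0.965 points, and against TetR-MYBTA alone that at gene ends was -0.124, all opposite in sign to those against the 6 together. Recurrence at gene ends minus between genes was -2.90 points within 5 bins of list place, where the cause was not tested, and 6.61 to 9.13 with a library left out. Replicate numbers did not pair the libraries: presence of same-numbered libraries of different lines, as deviations from the line means, correlated at -0.00494 to 0.00694. With the replicate number as a block the differences of 0.26, 0.94 and -1.20 points had exact p = 0.852, 0.630 and 0.519.

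Of 280 counts for single gene lists under other settings, 241 were within 1.5 times. With a WT library left out, list counts moved by more than that for genes with none in the feeder (2 to 5), mesoderm (1), formative (0 to 1) and primitive endoderm lists (0 to 1), and for genes with an end region in primitive endoderm (2 to 5) and skin (0 to 1). List length limits the ends of the lists most, and depth per peak is not known here.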

Other observations

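On chromosome 8 the shift decides what a gene appears to have. Regions at gene ends were 6.79% of the 2076 regions of chromosome 8 as deposited and 27.8% with the measured shift of 181.7 kb taken off, and on X they were 29.8% and 30.7%. Zfp42, which encodes the pluripotency marker Rex1, had 0 regions within 50 kb as deposited. With the shift taken off it had 7 and was marked as having a region at an end. Klf2, a Krüppel-like factor of the naive state, had 3 and 5. Foxc2 had 0 and 4 regions, Klf1 0 and 8, and Hand2 1 and 5. On X, Nr0b1 had 4 either way, and Sox3, Rhox9 and Bmp15 had 0 either way. Any list of genes near these peaks that includes chromosome 8 without that step can differ accordingly.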
